A study of Mus musculus with 2 samples.

Results

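The 47 genes described here encode the proteasome, its activators and its assembly factors. They were chosen by name: every listed protein-coding gene whose symbol begins with Psma, Psmb, Psmc, Psmd, Psme, Psmf or Psmg and continues with a digit. The deposited tables list 11405 genes, of which these are 47. The annotation holds 50 protein-coding genes with such symbols, and Psma8, Psmb11 and Psme2b, a testis subunit, a thymus subunit and a close copy of Psme2, are not listed. By symbol the set also takes in Psmc3ip, a factor of meiotic recombination that is no part of the proteasome. Fam192a, which newer annotation calls Psme3ip1, bears its older symbol in the table used and was not counted (control 31.3, knockdown 32.8).

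RNA was sequenced from MS1 cells, an immortalised endothelial cell line from mouse pancreatic islets. One line, with the genotype label wt, had been infected with lentivirus carrying a hairpin RNA against LacZ, a bacterial gene, and serves as the control. The other, labelled as Pspc1 knockdown, had received lentivirus with a hairpin against Pspc1, which encodes a protein of nuclear paraspeckles. Each group is 1 library. No age, time after infection, number of hairpins or clone status was given in the sources used here. With 2 libraries there is no spread between cultures to measure, and for that reason the text gives no p-values. No difference below has a replicate check.

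The proteasome degrades proteins that carry ubiquitin. Its core, the 20S particle, is a barrel of alpha and beta rings, and the beta subunits Psmb6 (beta1), Psmb7 (beta2) and Psmb5 (beta5) hold the active sites. The 19S particle caps the barrel, binds ubiquitin, unfolds the substrate with a ring of ATPases and feeds it in. In cells exposed to interferon gamma, Psmb9, Psmb10 and Psmb8 take the places of beta1, beta2 and beta5 during assembly to form the immunoproteasome. Psme1 and Psme2 form the activator PA28, which is induced by the same cytokine, and both changes favour peptides that are loaded on MHC class I.

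Both libraries were deep: the listed genes drew 64009912 reads in the control and 53518762 in the knockdown. Pspc1 itself stood at 28.8 in the control and at 3.78 under its hairpin, 7.62-fold lower. Of 12 endothelial markers 10 are listed, with a summed value of 5900 in the control and 5822 in the knockdown, and Vwf and Cldn5 are not listed. Pecam1 (2258 and 2175) and Tie1 (1080 and 1355) carry most of that sum, and single markers differed both ways. Cdh5 (859 and 511), Kdr (149 and 77.3), Tek (13.6 and 7.13) and Erg (119 and 85.0) were lower in the knockdown, and Esam (376 and 566) was higher. None of 6 islet endocrine markers is listed. Of 8 leukocyte markers only Cd68 is listed (102.7 and 123.7), of 5 fibroblast markers only Pdgfra (1.15 and 0.985), and of 4 epithelial markers only Krt18 (23.9 and 36.9). The part of these markers in the results below was not tested. In cultured cells, as in any bulk sample, fewer cells that express a gene and less RNA per cell cannot be told apart.

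The start regions of 5 genes are shown first, because the comparison below sets subunits induced by interferon against the constitutive ones. Each is the RefSeq window on GRCm38.p6 from 250 bases before to 50 after the start site, on the strand of the gene, in lower case. Capitals mark matches, on either strand, to the core of the interferon-stimulated response element (GAAA, any 2 bases, GAAA), the antioxidant response element core (TGACNNNGC), which NRF1 and NRF2 bind, or the NF-Y box (CCAAT).
Psmb8 (chr17:34197945-34198244, plus strand): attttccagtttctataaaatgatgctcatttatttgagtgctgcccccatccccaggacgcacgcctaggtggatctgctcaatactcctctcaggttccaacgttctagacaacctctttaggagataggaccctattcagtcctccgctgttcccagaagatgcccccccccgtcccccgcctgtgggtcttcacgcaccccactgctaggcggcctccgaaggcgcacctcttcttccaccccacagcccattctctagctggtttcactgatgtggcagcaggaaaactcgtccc
Psmb9 (chr17:34187281-34187580, minus strand): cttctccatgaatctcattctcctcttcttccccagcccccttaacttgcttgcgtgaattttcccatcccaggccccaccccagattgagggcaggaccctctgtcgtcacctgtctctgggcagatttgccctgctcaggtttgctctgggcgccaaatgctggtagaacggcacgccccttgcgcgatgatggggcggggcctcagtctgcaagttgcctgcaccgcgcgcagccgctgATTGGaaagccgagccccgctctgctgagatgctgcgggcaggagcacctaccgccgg
Psme1 (chr14:55578244-55578543, plus strand): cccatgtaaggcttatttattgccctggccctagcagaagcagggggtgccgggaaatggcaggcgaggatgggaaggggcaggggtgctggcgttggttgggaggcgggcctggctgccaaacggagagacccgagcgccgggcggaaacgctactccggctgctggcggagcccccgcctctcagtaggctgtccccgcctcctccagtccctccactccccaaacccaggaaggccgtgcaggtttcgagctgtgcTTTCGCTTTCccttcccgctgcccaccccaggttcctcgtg
Psmb5 (chr14:54617946-54618245, minus strand): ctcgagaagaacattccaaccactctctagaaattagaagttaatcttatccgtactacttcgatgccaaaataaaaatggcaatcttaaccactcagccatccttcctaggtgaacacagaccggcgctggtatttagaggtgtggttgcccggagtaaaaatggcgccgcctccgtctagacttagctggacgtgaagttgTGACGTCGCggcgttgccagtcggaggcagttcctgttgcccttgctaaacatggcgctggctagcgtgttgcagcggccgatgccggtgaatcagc
Psmb6 (chr11:70525107-70525406, plus strand): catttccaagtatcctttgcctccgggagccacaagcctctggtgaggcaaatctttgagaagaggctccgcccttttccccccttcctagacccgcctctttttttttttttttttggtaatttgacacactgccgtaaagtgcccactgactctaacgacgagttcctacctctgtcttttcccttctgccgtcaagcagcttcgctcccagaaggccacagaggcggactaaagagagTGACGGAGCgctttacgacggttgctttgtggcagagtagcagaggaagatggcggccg
The Psmb9 window holds 275 of the 300 bases of the window of Tap1, a peptide transporter gene that starts 226 bp away on the other strand. Psmb5 and Psmb6, both constitutive, hold the antioxidant element core, and Psme1 holds the interferon element core, on the minus strand, just after its start site. The Psmb8 window holds none of these letters. All windows were set by RefSeq start sites. Those of Psmb8, Psmb9, Psme1 and Psmb5 lie inside the genes of the GENCODE annotation, in which the Psmb9 and Tap1 genes overlap.

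Most of these letters are common in start regions of any gene. Windows were found for 40 of the 47 members, 43 in all. The interferon element core stood in 5 of them (Psmb3, Psmd4, Psmd9, Psme1 and Psmg4), or 11.6%, against 3.44% of all 32851 windows. Of the 5 inducible genes Psme1 alone held it. The antioxidant core stood in 6 of the 43 member windows against 12.4% of all, and the NF-Y box in 32.6% against 37.4%. A loose kappa B pattern (GGG, any 5 bases, CC) stood in 55.8% against 50.8%, too common to mark. These are letter matches and not binding sites.

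As a group the proteasome genes were slightly higher in the library with the Pspc1 hairpin. All values are the deposited ones, and of each pair the first is the control. The log2 ratio is that of knockdown over control after adding 0.5 to both values, which understates the difference of low genes. Of the 47 genes, 42 averaged 20 or more over both libraries and were set beside all 5892 listed genes that did so. Their median log2 ratio was 0.16, against 0.04 for all genes compared. Of the 42 members 32 lay above 0, or 76.2%, against a background of 55.0% of all genes compared. With the total of the listed genes as the scale, which moves all genes by -0.10, the medians were 0.06 and -0.07. On that scale 26 of the 42 members lay above 0, and the share of all genes was not counted. The members also had higher levels, with a median of 152.6 for the mean of both values, against 67.3 for all genes compared. What part level has in the difference was not tested. Of all reads, 0.878% belonged to the 47 genes in the control (exact 95% binomial interval 0.876 to 0.880) and 0.918% in the knockdown (0.916 to 0.921). Intervals here cover counting error only and treat every read as independent. The reads carry no molecular identifiers, so reads copied from the same molecule would make the intervals too narrow.

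Few members differed by much. Higher by at least 25% were 4 of 42 (Psmb8, Psmd8, Psme1 and Psmf1), against a background of 15.3% of all genes compared. Lower by at least 20%, the same ratio inverted, were 3 (Psmd11, Psmd1 and Psmc3ip), against 15.1%. Both shares lay below the background. At 1.5-fold only Psmb8 and Psmd8 were higher (background 3.82%) and none lower (5.52%), and no member reached 2-fold in either direction (0.849% and 1.21%). With the cutoffs of 25% and 20%, the counts were 2 higher and 4 lower on the total scale, where 8.71% and 21.9% of all genes compared passed. They were 6 and 3 with a trimmed mean of M values (19.2% and 13.02% of all genes) and 7 and 2 with median-of-ratios scaling (20.2% and 12.7%), so the background moved along with them. The order of the members by level was nearly the same in both libraries, with a Spearman rho of 0.985 across the 47 genes, which share both libraries and are not independent replicates.

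**Figure D1:**
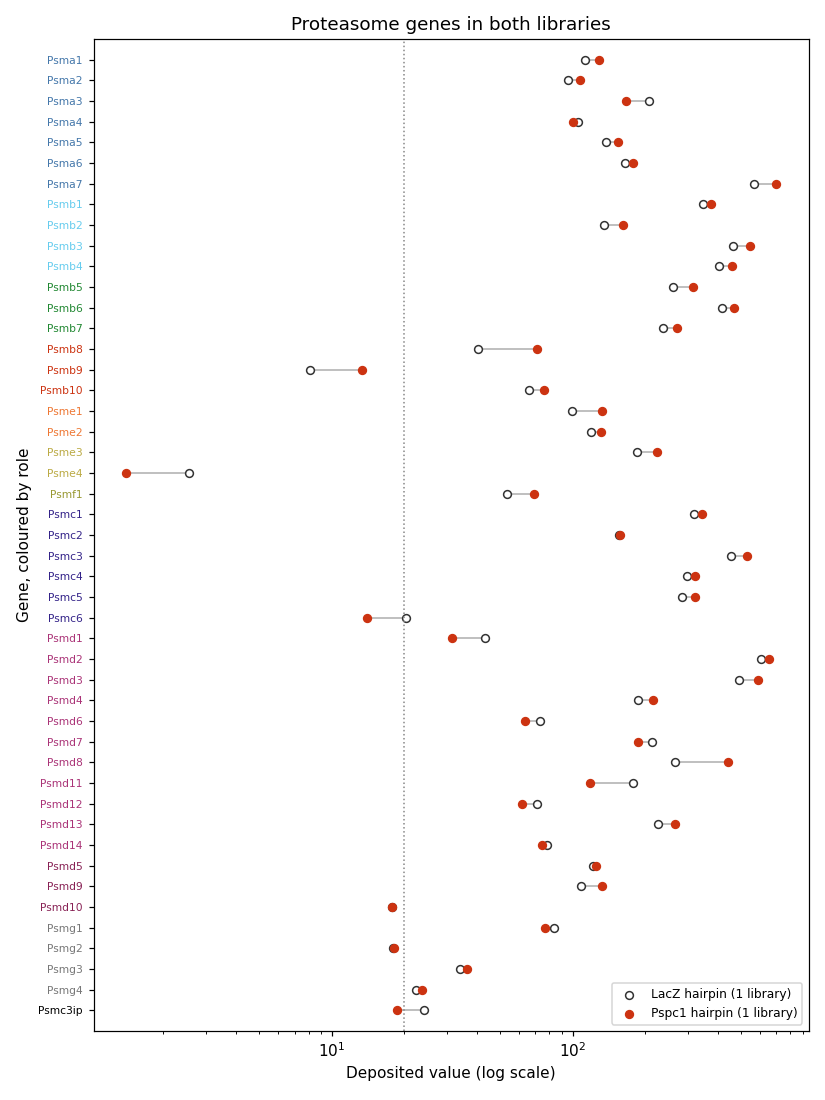
Deposited value of each of the 47 genes on a log axis, with an open point for the LacZ hairpin library and a filled point for the Pspc1 hairpin library. Symbols are coloured by role, and the dotted line marks the minimum of 20 that the mean of both values had to reach. Psmb8, Psmb9 and Psmd8 show the widest gaps to the right (Psmb8 40.3 to 70.7), Psmd11 and Psme4 to the left.

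The inducible catalytic subunits went apart. Psmb8 (ENSMUSG00000024338, mm10 chromosome 17, 34197721 to 34201454, plus strand), the inducible beta5, had 40.3 in the control and 70.7 in the knockdown, from 2628 and 3591 reads. It was 1.76-fold higher, with a log2 ratio of 0.81 (interval 0.74 to 0.89; such intervals are 95% and exact, from the reads alone with nothing added), the highest of all 47 genes. Psmb9 (ENSMUSG00000096727, chromosome 17, 34181987 to 34187764, minus strand), the inducible beta1, had the low values of 8.15 and 13.3, from 532 and 675 reads. Its ratio was 1.63-fold, with an interval of 0.54 to 0.87 log2, but its mean lay under the minimum of 20 and it is in none of the counts. Psmb10 (ENSMUSG00000031897, chromosome 8, 105935735 to 105938444, minus strand), the inducible beta2, differed much less, with 65.7 and 76.3 (log2 ratio 0.21, interval 0.15 to 0.28). So 2 of the 3 stood well above the constitutive subunits, and Psmb10 stood among them.

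PA28 was also uneven. Psme1, its alpha subunit, had 98.8 and 132.2, 1.34-fold higher (log2 ratio 0.42, interval 0.37 to 0.47). Psme2, the beta subunit, had 118.7 and 131.1 (0.14, interval 0.10 to 0.19). Both genes lie within a few kilobases of each other on chromosome 14. In Psme2, 59.3% of the 50-base stretches of its longest transcript also occur in transcripts of other genes, chiefly its copy Psme2b, so its reads may have been split or dropped. In Psme1 the share was 2.27%, and in Psmb8, Psmb9 and Psmb10 it was 0%.

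As deposited, the constitutive catalytic subunits had like ratios. Psmb5 (beta5) had 261.0 and 314.7, Psmb6 (beta1) 416.5 and 468.8, and Psmb7 (beta2) 237.8 and 270.5. Their log2 ratios were 0.27, 0.17 and 0.19, so all 3 lay within 0.10 log2 of each other. The log2 ratio was also fitted over all genes compared on the length of merged exons and the GC content of the longest transcript. After this fit, called the fit on merged exons below, the 3 subunits lay further apart, at 0.03, 0.08 and 0.42. After a fit on length and GC content of the principal transcript they lay at 0.07, -0.02 and 0.17. Of the 50-base stretches of Psmb5, 57.1% also occur in other genes, among them Gm3375, so its level is uncertain.

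The comparison of inducible with constitutive subunits depends on which genes are counted. The 4 inducible genes above the minimum (Psmb8, Psmb10, Psme1 and Psme2) had a median log2 ratio of 0.32, against 0.19 for Psmb5, Psmb6 and Psmb7 and 0.10 for the 19S subunits. The differences of medians were 0.13 and 0.21. With Psmb9 included, as all 5 inducible genes without a minimum, they were 0.23 and 0.32. After the fit on merged exons they were 0.06 in both comparisons, with Psmb10 and Psme2 at 0.02. As deposited, the ranges overlap: Psme2 (0.14) and Psmb10 (0.21) lie below Psmb5 (0.27). Psmb8, Psmb9 and Psme1 lie above all 3 constitutive subunits as deposited. After the fit on merged exons Psme1 (0.25) lay below Psmb7 (0.42), and after that on the principal transcript above it (0.26 against 0.17).

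**Figure D2:**
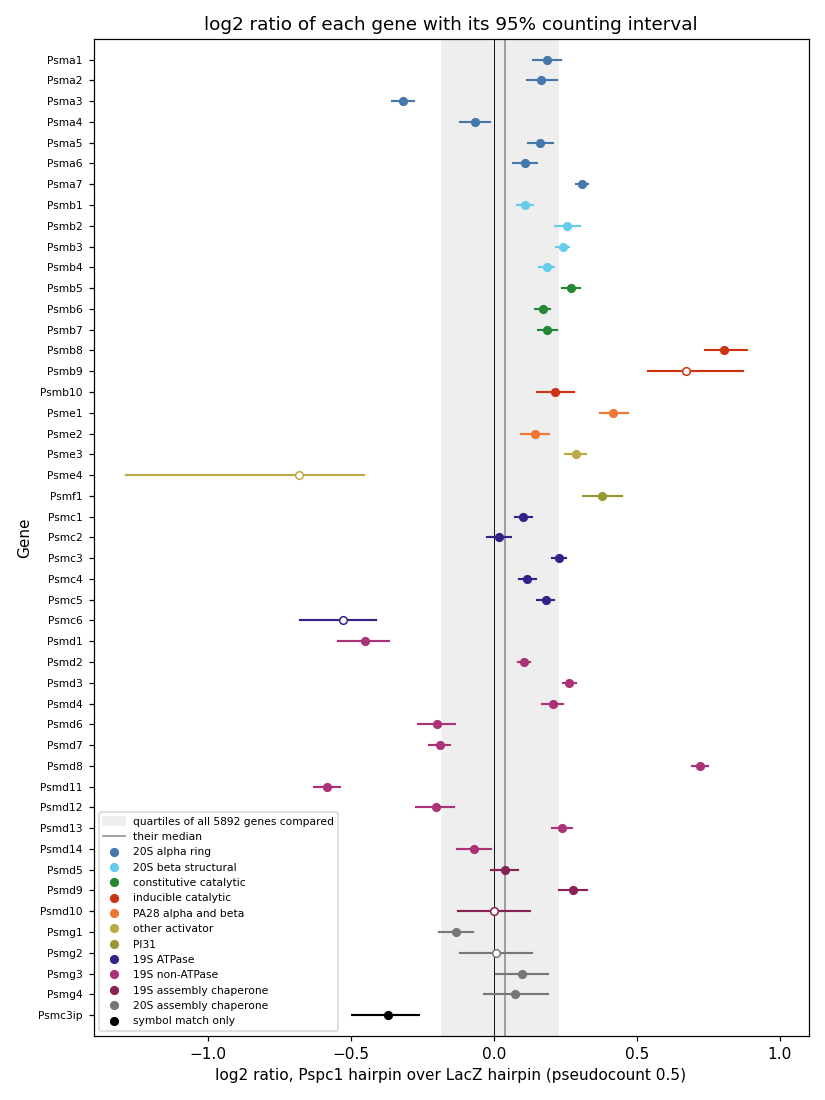
Log2 ratio of each gene, Pspc1 hairpin over LacZ hairpin, with lines for the exact 95% interval from the read counts and open points for genes whose mean was under 20. The grey band runs from the lower to the upper quartile of the 5892 genes compared and the grey line their median of 0.04. Psmb8 (0.81), Psmd8 (0.72) and Psmb9 (0.67) stand apart on the right.

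The inducible form made up a larger share of its pair in the knockdown for beta5 and beta1. Reads of Psmb8 made up 13.4% of the reads of Psmb8 and Psmb5 in the control library (exact binomial interval 12.9 to 13.8) and 18.4% in the knockdown library (17.8 to 18.9). Psmb9 made up 1.92% of Psmb9 and Psmb6 (1.76 to 2.09) and then 2.76% (2.56 to 2.97). Psmb10 made up 21.6% of Psmb10 and Psmb7 (21.1 to 22.2) and 22.0% (21.4 to 22.6). The intervals of the 2 libraries are separate for the beta5 and beta1 pairs and overlap for the beta2 pair. Counting intervals are narrow at this depth, and how often those of other gene pairs are separate was not counted. The ratio of inducible to constitutive reads was 1.46 times the control ratio for beta5 (exact conditional interval 1.38 to 1.54), 1.45 times for beta1 (1.29 to 1.63) and 1.02 times for beta2 (0.971 to 1.07). A scale factor per library leaves these ratios of ratios as they are, but the fit on length and GC does not. On the log2 scale they were 0.54, 0.54 and 0.03 for beta5, beta1 and beta2, and after the fit on merged exons 0.71, 0.51 and -0.40. After the fit on the principal transcript Psmb8 lay at 0.66 and Psmb5 at 0.07, and Psmb9 at 0.52 and Psmb6 at -0.02. Psmb10 then lay at 0.04 and Psmb7 at 0.17, where the fit on merged exons put Psmb7 at 0.42. The ratios of ratios compare 2 libraries and not the conditions.

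Per length, the shares depend on the length taken. Per kb of merged exons, Psmb8 was 3.94% of its pair in the control and 5.64% in the knockdown, Psmb9 0.991% and 1.43%, and Psmb10 35.7% and 36.1%. Per kb of the APPRIS principal transcript, the isoform marked as the main one, they were 7.85% and 11.04%, 1.14% and 1.65%, and 19.6% and 19.97%. By either measure the inducible form was the minor one of each pair in both libraries. By either measure, too, the level per kb of Psmb10 was the highest of the 3 inducible subunits and that of Psmb9 the lowest, in both libraries. The labels state no strand-marking kit, and exons on the opposite strand overlap 212 bp of Psmb9 (Tap1), 405 bp of Psmb7 (Nek6) and 498 bp of Psmb8 (Gm20496, not listed), so reads there are uncertain.

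**Figure D3:**
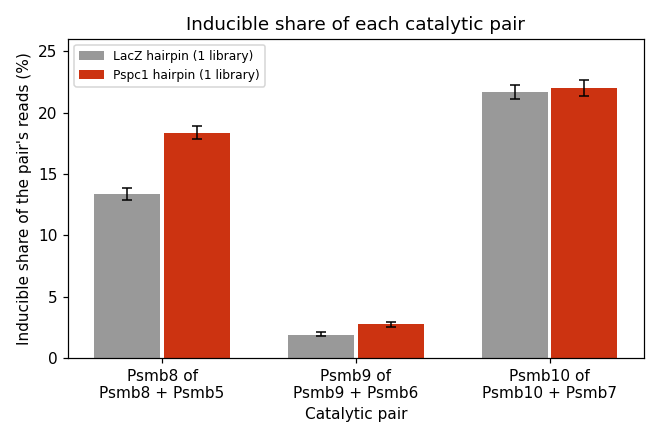
Share of the reads of each catalytic pair that belong to the inducible gene, in percent, with a grey bar for the LacZ hairpin library and a red bar for the Pspc1 hairpin library. Error bars are exact 95% binomial intervals. The share goes from 13.4% to 18.4% for Psmb8, from 1.92% to 2.76% for Psmb9 and from 21.6% to 22.0% for Psmb10.

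Psmb8 and Psmb9 lie in the MHC region beside the genes of the peptide transporter TAP, and the 4 neighbours had like ratios. Tap1, between them, had 35.0 and 61.3, 1.75-fold higher, and Tap2, just beyond Psmb8, had 27.3 and 46.9, 1.72-fold higher. The listed genes within 50 kb on the other side, H2-DMa (2.21 and 2.19) and H2-DMb1 (2.25 and 1.99), which act in MHC class II loading, had values near the bottom of the table. Around Psme1 and Psme2 the ratios were mixed. Dcaf11 (1.30-fold) and Irf9 (1.31-fold) were higher, while Pck2 (163.4 and 166.6) and Ipo4 (66.4 and 61.7) lay close to equality. The log2 ratios of Rnf31 (0.13), Tm9sf1 (0.16) and Emc9 (0.08, from the low values of 5.35 and 5.67) lay in between, as did that of Psme2 (0.14).

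Of the other 20S subunits, the structural beta subunits lay close together and the alpha subunits spread more widely. All 4 structural beta subunits lay above 0, between 0.11 for Psmb1 and 0.26 for Psmb2, as did Psmb3 (462.0 and 545.7) and Psmb4 (403.1 and 458.1). Of the 7 alpha subunits, which form the outer ring and its gate, 5 lay above 0, with a median of 0.16. Above 0 lay 55.0% of all genes compared. Psma1 (112.7 and 128.2), Psma2 (95.5 and 107.2), Psma5 (138.0 and 154.3) and Psma6 (164.5 and 177.3) lay between 0.11 and 0.19. Psma7, the highest of them per kb, had 563.4 and 697.3 and a log2 ratio of 0.31 (interval 0.29 to 0.33). Psma3 was the lowest, with 207.3 and 166.2 (-0.32, interval -0.36 to -0.28), but it lay at 0.02 after the fit on length and GC of the principal transcript. Of its 50-base stretches 22.0% also occur in other genes, and of those of Psma5 54.45%, so both levels are uncertain. Psma4 had 104.6 and 99.9. Its log2 ratio of -0.07 turned to 0.03 after the fit on merged exons, and 25.6% of its 50-base stretches occur in a copy. The alpha subunits enter the ring in equal numbers, yet their levels per kb of principal transcript ran from 32.8 for Psma2 to 616 for Psma7 in the control and from 36.8 to 763 in the knockdown. Per kb of merged exons the range was narrower, 7.06-fold in the control against 18.8-fold on the principal transcript.

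In the 19S particle 5 of the 6 ATPases lay close together, and Psmc6 and the other subunits spread more widely. Of the 6 ATPases that form its motor ring, Psmc1 to Psmc5 had log2 ratios between 0.02 (Psmc2) and 0.23 (Psmc3). Psmc4, with 297.9 and 322.8, lay in the middle of them. On the total scale Psmc1 and Psmc2 lay below 0. Psmc6 had the low values of 20.3 and 13.9 (-0.53, interval -0.68 to -0.41), with a mean under the minimum. It lay at -0.24 after the fit on merged exons and at -0.16 after that on the principal transcript. Per kb of principal transcript it was 30.4-fold below Psmc3 in the control library and 52.0-fold in the knockdown. The 11 non-ATPase subunits ran from -0.58 to 0.72, with 5 above 0 (background 55.0%) and 6 below.

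Psmd8 stood apart from the rest of the 19S particle. Psmd8 (ENSMUSG00000030591, mm10 chromosome 7, 29174188 to 29180701, minus strand), a lid subunit, had 266.4 in the control and 438.9 in the knockdown, from 17382 and 22281 reads. That is 1.65-fold higher, with a log2 ratio of 0.72 (interval 0.69 to 0.75). The next 19S subunit, Psmd3, another lid subunit, had 490.8 and 589.3 (0.26), so the gap was 0.46 log2. Under the 8 settings run for single genes the log2 ratio of Psmd8 stayed between 0.61 and 0.77. No exon of Psmd8 overlaps another annotated gene, and none of its 50-base stretches occurs elsewhere.

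At the other end were Psmd11 and Psmd1. Psmd11, a lid subunit, had 177.5 and 118.3, with a log2 ratio of -0.58 (interval -0.63 to -0.54), and Psmd1, a large base subunit, had 43.0 and 31.4 (-0.45, interval -0.55 to -0.37). Psmd11 lay at -0.27 after the fit on merged exons and -0.49 after the fit on the principal transcript. Psmd12 (70.9 and 61.5), Psmd6 (73.0 and 63.4) and Psmd7 (212.6 and 186.3) were lower by smaller amounts, between -0.19 and -0.20. Psmd14, the lid enzyme that cuts ubiquitin off the substrate, had 78.5 and 74.8. Psmd2, a large base subunit like Psmd1, had 606.9 and 652.1, and the ubiquitin receptor Psmd4 had 186.9 and 215.6. The lid subunit Psmd13 had 225.0 and 265.4 (0.24). As deposited, the lid held both the highest and the lowest ratio of the particle. After the fit on merged exons the lowest was Psmd1, in the base (-0.31 against -0.27 for Psmd11).

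Among the 19S subunits the ratio went with GC content. Across the 16 compared, Spearman's rho between the log2 ratio and the GC content of the principal transcript was 0.87, and across the 42 members 0.55. Over all 5889 genes with a GC value it was 0.30, and the genes share the same 2 libraries. Among the 7 members with a GC content under 45% the median was -0.07 and 3 lay above 0. Among the 13 from 45 to 50% it was 0.04 and 8 lay above 0. Among the 14 between 50 and 55% it was 0.22 and 13 lay above 0. Among the 8 at 55% or more it was 0.22 and 8 lay above 0. Medians of all genes compared in these ranges were, in order, -0.23, -0.05, 0.07 and 0.12. The share of all genes above 0 in each range was not counted. With the mean value, rho was 0.79 across the 19S subunits, 0.35 across the members and 0.20 over all genes compared. With exon length it was 0.003 across the members, against -0.32 over all genes compared. Once fitted on merged exons, the ratio had a rho with exon length of 0.41 across the members and 0.009 over all genes. With the GC content of the longest transcript, rho was then 0.515 across the 19S subunits and 0.004 over all genes. After the fit on merged exons the median of the members was 0.09, against 0.05 for all genes compared. After it 33 of 42 lay above 0, against a background of 57.1%. After that fit 7 members were higher by at least 25% (Psmb7, Psmb8, Psma1, Psma2, Psmd8, Psmd9 and Psmf1, background 15.2%). Only Psmc3ip was lower by at least 20% (10.5%). After the fit on the principal transcript 4 were higher (Psmb8, Psmd8, Psma2 and Psmf1, background 14.5%). Lower by at least 20% were then 2, Psmd11 and Psmc3ip (10.6%). What part GC content or length has in these ratios was not tested.

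**Figure D4:**
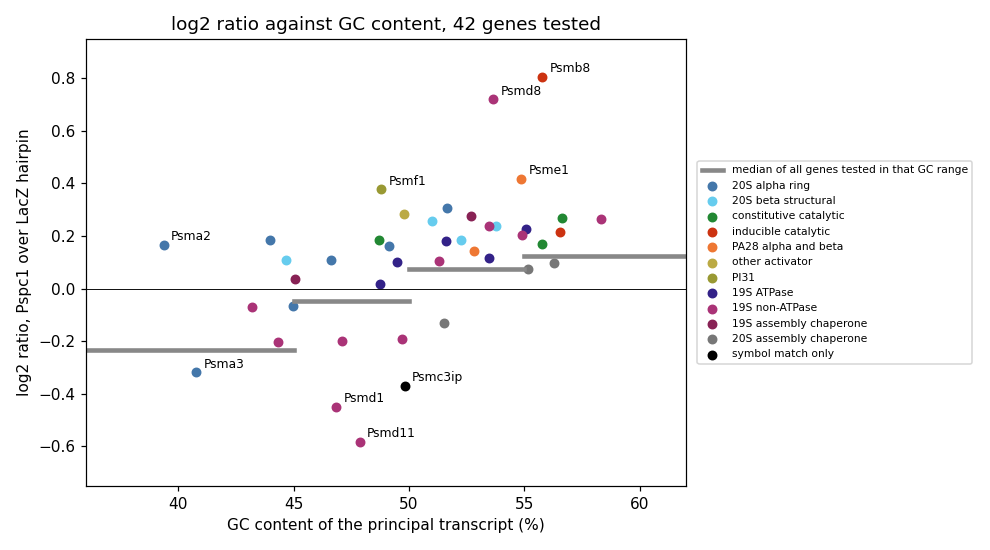
Log2 ratio of the 42 genes compared against the GC content of the principal transcript in percent, coloured by role, with grey bars for the median of all genes compared in each GC range. Medians of all genes go from -0.23 under 45% GC to 0.12 at 55% or more, and Psmb8 and Psmd8 lie far above the bars of their ranges.

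Activators, the inhibitor and the assembly factors made up the rest. Psme3, the nuclear activator PA28 gamma, had 184.0 and 224.4 (0.29, interval 0.25 to 0.32). Psme4, the activator PA200, was barely present, with 2.54 and 1.399 from 166 and 71 reads (-0.68, interval -1.29 to -0.45). Psmf1, which encodes the regulator PI31, had 53.1 and 69.1, 1.30-fold higher (0.38, interval 0.31 to 0.45). Of the chaperones that build the 19S base, Psmd5 (121.2 and 124.3) and Psmd10 (17.8 in both) differed little. Psmd9 was higher, with 108.6 and 131.7 (0.28, interval 0.23 to 0.33). Exons of Gm26745, which is not listed, overlap 1849 bp of Psmd9 on the opposite strand, so its reads there are uncertain. The 20S assembly chaperones Psmg1 (83.9 and 76.6), Psmg2 (18.0 and 18.1), Psmg3 (34.1 and 36.5) and Psmg4 (22.4 and 23.6) lay between -0.13 and 0.10. Psmc3ip, the gene that only shares the symbol, had 24.1 and 18.6 (-0.37).

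Genes that work with the proteasome went in both directions. Of 21 partner genes 20 are listed and 17 reached the minimum, with a median log2 ratio of -0.06 and 8 above 0 (background 55.0%). After the fit on merged exons their median was 0.05. None was higher by at least 25% and 2 were lower by at least 20%, against backgrounds of 15.3% and 15.1% of all genes compared: Rad23b, which shuttles ubiquitinated proteins to the proteasome (330.2 and 200.6, log2 ratio -0.72), and the shuttle factor Ubqln2 (100.7 and 73.1, -0.46). The maturation factor Pomp (339.3 and 413.6, 0.28) and the 19S ubiquitin receptor Adrm1 (247.5 and 295.0, 0.25) lay near the core subunits. The 19S-bound deubiquitinase Usp14 had 23.8 and 19.2 (-0.31), and the scaffold Ecpas, with a mean under the minimum, had 8.18 and 4.61 (-0.77). NRF1, encoded by Nfe2l1, drives proteasome genes when the proteasome is inhibited. Of 12 genes on that axis 10 reached the minimum, with a median of 0.10 and 6 above 0 (background 55.0%). By at least 20%, 1 was lower (background 15.1%), Ddi2, the protease that activates NRF1 (27.4 and 20.2). Nfe2l1 itself had 450.9 and 502.0 (0.15).

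Several genes of interferon signalling and MHC class I presentation had higher values in the knockdown. Of 14 such genes 9 reached the minimum, with a median of 0.38, and 5 were higher by at least 25% against none lower by 20% (backgrounds 15.3% and 15.1%). They were Ifngr2, a chain of the interferon gamma receptor (68.7 and 221.9), Tap1, Tap2, Tapbp (76.9 and 102.8) and Irf9 (24.1 and 31.5). The transcription factor Irf1, which interferon gamma induces, had 34.3 and 34.0. Of the 5 NF-kB subunit genes 4 reached the minimum and 3 were higher by at least 25%: Relb (27.7 and 56.0), Rela (166.6 and 232.5) and Nfkb2 (161.7 and 222.7), while Nfkb1 had 52.9 and 47.5. These genes were measured in the same 2 libraries, so their ratios are not independent of those of the proteasome genes.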

How the data were processed

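The libraries were poly-A RNA made with the NEBNext Ultra kit, per the labels' protocols. The submitters' processing notes name build mm10 and 4 tools with no role or order: DESeq 1.39.0, featureCounts 2.0.0, Trimmomatic 0.39 and HISAT2 2.1.0. Annotation, multimapping reads and any filter on low genes are not given in the sources used here. Signal values per gene were deposited after scaling by the authors. Each is a whole multiple of 1 step per library (tolerance 0.01 reads), and the value divided by the step was taken as reads. The values were used as deposited, not rescaled.

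Symbols were found for 11399 of 11405 identifiers. Coordinates, merged exon lengths, transcripts and APPRIS marks came from GENCODE M21, of the same build as mm10. Members and lists were chosen with earlier results of these data known. All members are named, and most other genes come from lists of partners, regulators and cell type markers. Dcaf11, Pck2, Ipo4, Rnf31, Tm9sf1, Emc9, H2-DMa and H2-DMb1 were named after their values were seen. Ratios have exact 95% intervals (conditional binomial, Clopper-Pearson). Among members compared the fewest reads in a library were 943 and the median interval was 0.09 log2 wide. The steps were tested on simulated reads. Python 3.11.15, numpy 2.4.6, pandas 2.3.3, scipy 1.17.1 and matplotlib 3.10.9 were used. Alternatives were other scalings, pseudocounts, minimums and lengths, and a cubic fit of the log2 ratio on length and GC.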

Additional observations from a re-analysis of the deposited data

How the results depend on the processing

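Each group is 1 library, so no replicate could be left out. No paired analysis was possible because the groups share no replicates. The median log2 ratio of the members (0.16 as deposited) was 0.21 with median-of-ratios scaling, 0.0599 on the total scale, and 0.09 after either fit on length and GC (0.0919 on merged exons, 0.0905 on the principal transcript, the latter added after seeing the data). It stayed above the median of all genes under every setting run. The count higher by at least 25% (4) was 7 with median-of-ratios scaling, 2 on the total scale and 7 after the fit on merged exons, with 20.2%, 8.71% and 15.2% of all genes compared past it in turn (15.3% as deposited). The count lower by at least 20% (3) was 1 with a minimum mean of 50, 5 without a minimum and 1 after the fit on merged exons, with 10.7%, 26.6% and 10.5% of all genes (15.1% as deposited).

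The inducible minus constitutive difference (0.13) was 0.23 without a minimum, 0.0592 and 0.0778 after the fits on merged exons and on the principal transcript, and 0.24 without Psmb5 and Psme2, a choice made after seeing the data. The inducible minus 19S difference (0.21) was 0.32, 0.0616, 0.0776 and 0.31 under the same settings. Both stayed above 0 under every setting run. Per kb of the longest transcript, the inducible shares were 6.78% in the control and 9.58% in the knockdown for Psmb8, 0.651% and 0.941% for Psmb9, and 37.5% and 38.0% for Psmb10. Per kb of the principal transcript, also added later, they were 7.85% and 11.04%, 1.14% and 1.65%, and 19.6% and 19.97%. The log2 ratio of Pspc1 (-2.77 as deposited) was -1.94 with a pseudocount of 5, and -2.51 and -2.42 after the fits. Of the 47 members, 26 stayed above 0 and 9 below it under the 8 settings run for single genes. The other 12 changed sign, namely Psmc1, Psmc2, Psmd2, Psmd5, Psmd10, Psmd14, Psma3, Psma4, Psmb6, Psmg2, Psmg3 and Psmg4. The cause of these movements was not tested.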
